A study of Mus musculus with 9 samples.

Results

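The nuclear genes of oxidative phosphorylation were followed in the mouse intestine after abdominal irradiation, with and without lycopene. They were taken from the gene table as protein-coding genes outside the mitochondrial chromosome whose symbols begin with Nduf, Uqcr or Atp5, are Sdha, Sdhb, Sdhc or Sdhd, or begin with Cox, a digit from 4 to 8 and a letter. The rule found 94 of the 54532 genes of the table. By the known place of their products, 36 belong to complex I, 8 are assembly factors of complex I, 4 belong to complex II, 8 to complex III, 20 to complex IV and 18 to the ATP synthase. Atp5o has 2 entries. Its second entry (ENSMUSG00000116933), Cox7b2 and Cox8c had 0 reads in every library, which allows up to 3 reads or at most 0.372, 0.363 and 0.430 FPKM in the same order. The other 91 were tested.

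The study sequenced total RNA of mouse intestine from 3 groups of 3 libraries and asks what lycopene, a plant carotenoid, does to intestinal injury by radiation. Control mice received corn oil by gavage and no irradiation. IR mice received corn oil and 12 Gy to the whole abdomen on day 4. IR+LYC mice received lycopene in corn oil at 10 mg/kg per day for 10 days and the same 12 Gy on day 4, so that all 3 groups shared the vehicle. The labels give no strain, age, sex or gut segment, and do not state whether each library is a separate animal, so p-values measure the spread between these samples. Mice on lycopene without irradiation were not analysed here.

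Oxidative phosphorylation makes most of the ATP of resting cells. Complex I takes electrons from NADH and complex II from succinate, complex III passes them through cytochrome c to complex IV, which reduces oxygen, and the ATP synthase uses the proton gradient so built. Most subunits are encoded in the nucleus, and a small core is encoded in mitochondrial DNA and must be made in step with them. Absorptive enterocytes of the villus are rich in mitochondria. Several complex IV subunits have a second gene used in heart and muscle, lung or testis.

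Nuclear genes of this kind are known as targets of the transcription factors NRF1, GABPA of the ETS family and YY1, so the promoter letters were examined first. RefSeq (GRCm38.p6) held windows of 300 bases, 250 before and 50 after the transcript start, for 76 of the 93 member symbols. Windows of 7 members are shown 5′ to 3′ on the gene's own strand, and capitals mark every match on either strand to the 5 motifs searched. Cox6a1 and Sdhd stand for genes with NRF1 and ETS letters and Ndufs7 for those with YY1 letters. The other 4 are pairs of a ubiquitous and a heart and muscle isoform whose levels are compared later.
Cox6a1 (chr5:115348909-115349208, minus strand): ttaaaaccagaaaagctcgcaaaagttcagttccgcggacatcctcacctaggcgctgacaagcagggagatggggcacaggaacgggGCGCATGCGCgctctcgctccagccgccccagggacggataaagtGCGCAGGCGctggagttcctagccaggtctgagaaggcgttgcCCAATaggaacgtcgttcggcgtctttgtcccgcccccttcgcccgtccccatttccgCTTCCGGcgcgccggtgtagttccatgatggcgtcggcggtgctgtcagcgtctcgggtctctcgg
Sdhd (chr9:50603800-50604099, minus strand): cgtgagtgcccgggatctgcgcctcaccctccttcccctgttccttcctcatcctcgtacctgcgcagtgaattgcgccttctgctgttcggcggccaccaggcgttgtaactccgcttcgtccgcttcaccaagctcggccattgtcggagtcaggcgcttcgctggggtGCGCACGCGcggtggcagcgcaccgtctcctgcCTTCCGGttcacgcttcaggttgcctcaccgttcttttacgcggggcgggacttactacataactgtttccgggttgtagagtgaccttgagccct
Ndufs7 (chr10:80249199-80249498, plus strand): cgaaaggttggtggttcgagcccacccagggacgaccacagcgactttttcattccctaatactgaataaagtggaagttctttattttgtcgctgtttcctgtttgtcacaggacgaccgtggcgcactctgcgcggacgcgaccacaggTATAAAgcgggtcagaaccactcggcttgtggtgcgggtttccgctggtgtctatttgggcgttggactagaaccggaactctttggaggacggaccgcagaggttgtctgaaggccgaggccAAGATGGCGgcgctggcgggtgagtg
Cox7a2 (chr9:79759804-79760103, minus strand): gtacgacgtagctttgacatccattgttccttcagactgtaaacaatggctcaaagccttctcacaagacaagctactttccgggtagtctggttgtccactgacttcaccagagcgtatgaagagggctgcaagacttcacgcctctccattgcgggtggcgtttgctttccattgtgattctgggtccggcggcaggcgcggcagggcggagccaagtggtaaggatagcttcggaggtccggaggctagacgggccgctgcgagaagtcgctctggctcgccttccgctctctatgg
Cox7a1 (chr7:30183921-30184220, plus strand): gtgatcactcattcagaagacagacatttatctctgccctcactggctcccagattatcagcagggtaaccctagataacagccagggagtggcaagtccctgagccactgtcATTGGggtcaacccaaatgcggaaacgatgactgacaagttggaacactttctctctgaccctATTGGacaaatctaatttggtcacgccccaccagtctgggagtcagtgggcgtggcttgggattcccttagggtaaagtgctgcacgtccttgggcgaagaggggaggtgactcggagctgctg
Cox8a (chr19:7217567-7217866, minus strand): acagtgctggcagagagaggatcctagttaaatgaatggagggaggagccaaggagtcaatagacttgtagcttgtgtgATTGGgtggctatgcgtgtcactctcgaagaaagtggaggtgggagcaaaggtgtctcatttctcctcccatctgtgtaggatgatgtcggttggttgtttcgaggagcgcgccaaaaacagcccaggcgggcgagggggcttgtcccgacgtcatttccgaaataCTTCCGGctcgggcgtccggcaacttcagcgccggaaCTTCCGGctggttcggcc
Cox8b (chr7:140900397-140900696, minus strand): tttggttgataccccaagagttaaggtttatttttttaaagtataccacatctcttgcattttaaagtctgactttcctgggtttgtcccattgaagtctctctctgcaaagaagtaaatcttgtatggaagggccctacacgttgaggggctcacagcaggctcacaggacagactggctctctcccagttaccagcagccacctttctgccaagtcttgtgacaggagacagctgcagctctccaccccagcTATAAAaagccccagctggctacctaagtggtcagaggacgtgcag

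The Cox6a1 window held the NRF1 letters (GCGCANGCG, where N is any base) at 3 places, of which 2 lie on opposite strands of the same stretch, with the ETS letters (CCGGAAG, here on the other strand as CTTCCGG) at base 235 and CCAAT, a letter run bound by NF-Y, at base 177. The Sdhd window held NRF1 letters at base 172 and ETS letters at base 205. Ndufs7 held the YY1 letters (AAGATGGCG) at base 275 and TATAAA at base 152. Cox8a had ETS letters at bases 246 and 283 and CCAAT on the other strand at base 80, and its heart and muscle partner Cox8b had neither of these but held TATAAA at base 255. Cox7a1 held CCAAT letters on the other strand at bases 114 and 177, and Cox7a2 held none of the 5 motifs.

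Over the 81 windows of the members, NRF1 letters were found in 28.4%, against 6.25% of all 32851 windows of the reference. ETS letters were in 22.2% against 8.86%, YY1 letters in 9.88% against 1.40%, CCAAT in 43.2% against 37.4% and TATAAA in 9.88% against 13.6%. By complex, NRF1 letters were in 7 of 18 windows of the ATP synthase, 9 of 34 of complex I and 2 of 7 of its assembly factors. They were in 2 of 3 of complex II, 2 of 5 of complex III and 1 of 14 of complex IV, that of Cox6a1. The members' windows also held more G and C, with a median of 58.3% against 52.7%. The NRF1 and ETS letters are themselves rich in G and C, and a match of letters is not a bound site.

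**Figure D1:**
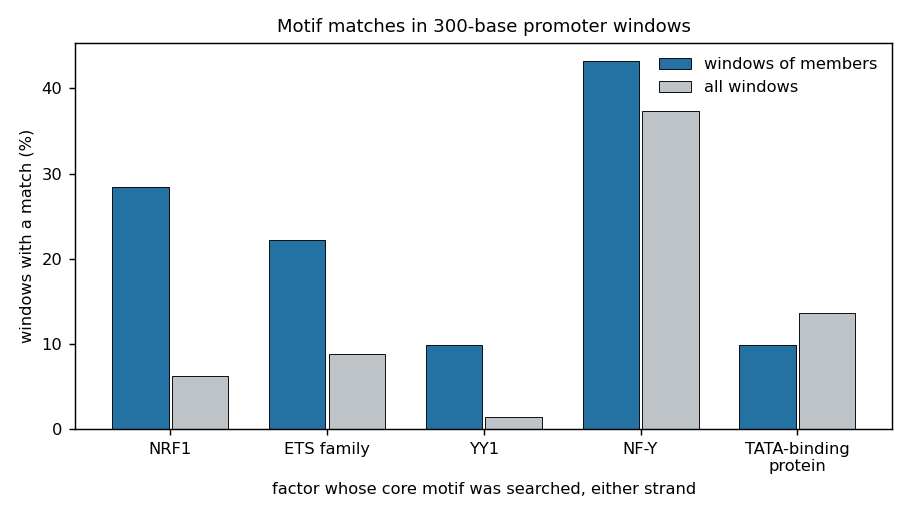
Share of 300-base promoter windows (percent) with at least 1 match to the core letters of each factor, on either strand, in the 81 windows of members (blue) and in all 32851 windows (grey). The largest gap is that of the NRF1 letters, 28.4% against 6.25%.

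Reads recovered from the deposited FPKM (fragments per length and depth, further scaled by the authors) numbered 17803889 to 22414949 per library, and 1.62 to 2.07% of them lay in members. The summed level of all members was 11039, 10253 and 10264 FPKM for control, 9641, 8173 and 10834 for IR and 7438, 14158 and 9360.3 for IR+LYC. IR+LYC 2 had the highest value of 76 of the 91 tested members and IR+LYC 1 the lowest of 64, where these libraries were highest for 20.6% and lowest for 26.4% of all 15391 genes tested. Within IR, IR 2 was the lowest in sum. IR+LYC thus held both the lowest and the highest library of the study.

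Markers of absorptive enterocytes moved with this order. The summed level of 15 such markers, brush border and fat transport genes, was 29140.3, 21808 and 25217 FPKM for control, 19236, 3929.8 and 23300.2 for IR and 1445, 26920.5 and 6786 for IR+LYC. The sum of 10 smooth muscle markers ran the other way, at 640.0, 745 and 838 FPKM for control, 1834, 1625 and 1364 for IR and 2936, 565 and 1951 for IR+LYC. In the deposited FPKM the 3 lowest libraries of the members, IR+LYC 1, IR 2 and IR+LYC 3, are also the 3 lowest in enterocyte markers. The part of these markers' cells in the members' levels was not tested. As a share of recovered reads the members made up 1.62% in IR+LYC 1, 1.69% in IR 2 and 1.84% in IR+LYC 3. Control libraries held 1.63 to 1.72%, so of these 3 only IR+LYC 1 lay below every control. The members' order of libraries thus depends on the scaling. Of the 15 enterocyte markers 15 were lower in IR than in control (median log2 difference -1.22), and of the 10 smooth muscle markers 10 were higher (0.95), with none past the test that follows. In IR, 8 of 9 leukocyte markers were lower than in control, and 5 of 6 crypt, 6 of 6 tested pericyte, 5 of 7 tested adipocyte and 4 of 5 tested striated muscle markers were higher, with none past the test. In bulk tissue fewer cells of a type and less RNA per cell cannot be told apart. Summed pancreatic acinar markers were at most 0.311 FPKM and germ cell markers at most 0.700, and the brown fat gene Ucp1 had reads in 1 library alone.

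**Figure D2:**
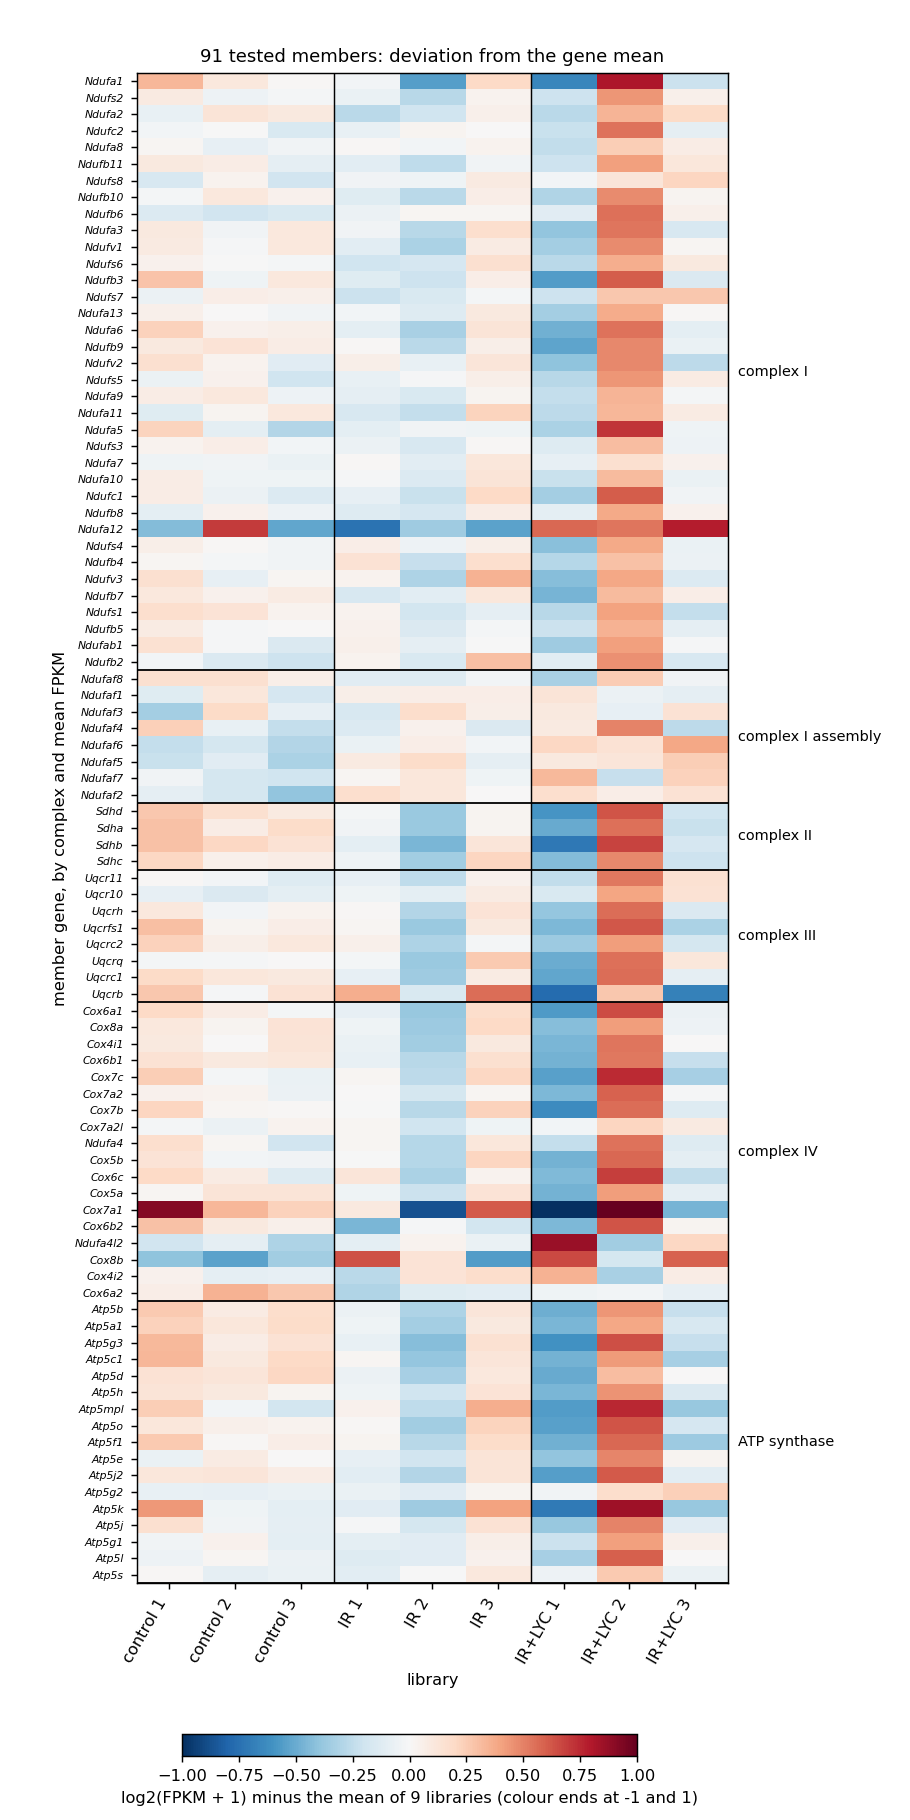
Level of each of the 91 tested members in each library, as log2(FPKM + 1) minus the mean of the 9 libraries, with members grouped by complex and ordered by mean FPKM. In this deposited scaling IR+LYC 2 is the reddest column (highest for 76 members) and IR+LYC 1 the bluest (lowest for 64), while Ndufa12, Cox8b, Ndufa4l2 and several assembly factors do not follow these columns.

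**Figure D3:**
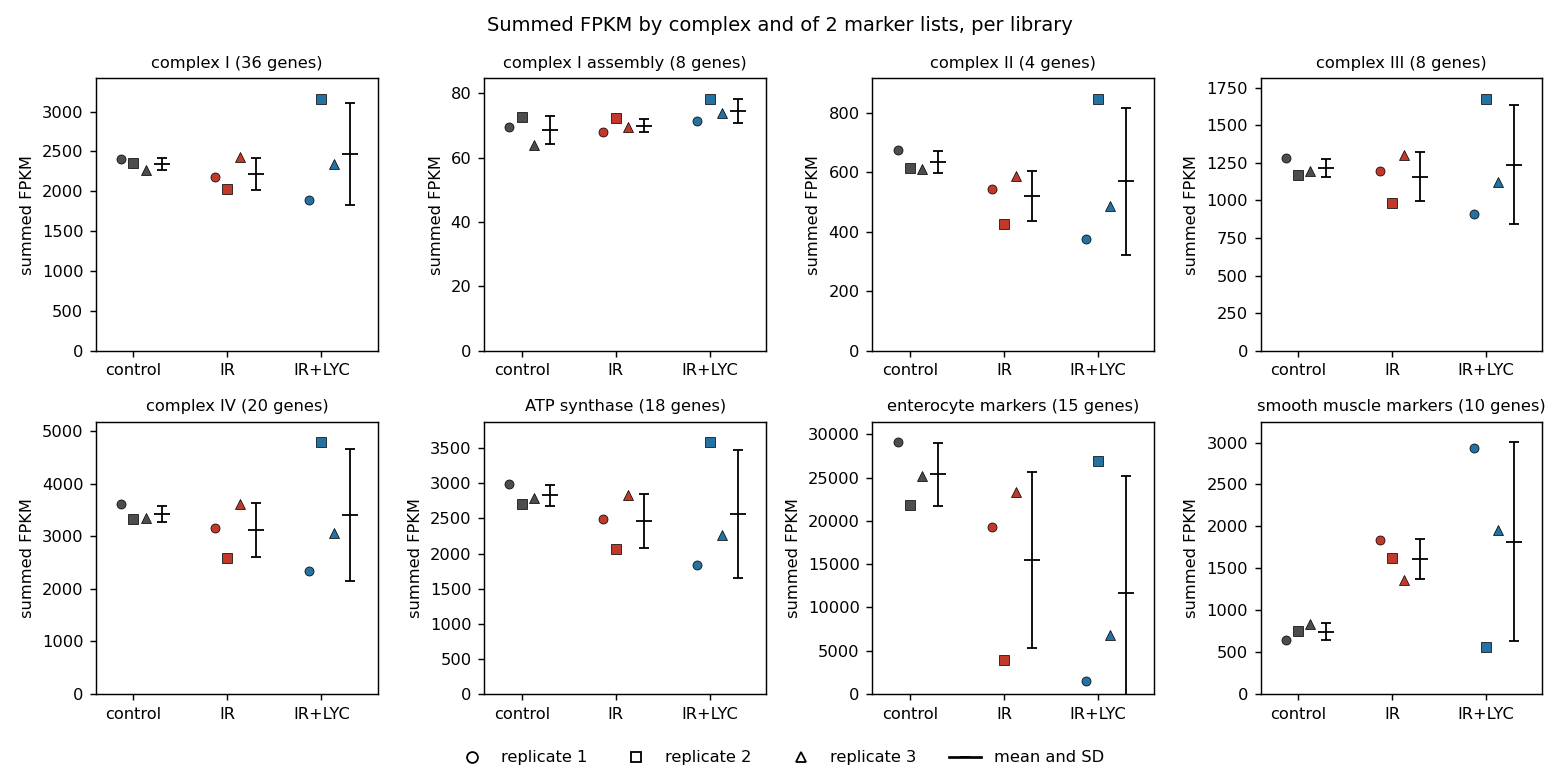
Summed FPKM of each complex and of the enterocyte and smooth muscle markers, per library, with symbols for the replicate and a bar for the mean ± SD (n = 3), whose lower end is cut at 0 where it falls below. In the deposited FPKM IR+LYC 1 is lowest and IR+LYC 2 highest in every complex but the assembly factors, which stay between 63.9 and 78.4 FPKM. The order of these sums was not computed over total reads. As a share of recovered reads all members made up 1.62% in IR+LYC 1, 1.63% in control 3 and 2.07% in IR+LYC 2.

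No member passed the test in any of the 3 comparisons. The test was limma on log2(FPKM + 1) over 15391 genes, with a threshold of 0.05 on the adjusted p, and each difference is a log2 difference of group means on that scale. In IR against control 0 of 91 members passed, where 0.0195% of all genes tested did, and 26 members lay higher and 65 lower in IR. In IR+LYC against IR 0 passed against 0% of all genes, with 75 higher and 16 lower. In IR+LYC against control 0 passed against 0.0195%, with 43 higher and 48 lower. An unadjusted p under 0.05 was reached by 4, 2 and 6 members in that order, against 8.34%, 4.26% and 14.1% of all genes tested. The median differences of the members were -0.08, 0.06 and -0.01, beside -0.01 in each comparison for all genes tested.

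These directions depended on the scaling and on single libraries. With FPKM computed over total reads, 72 of 91 members were higher in IR than in control and the members' median was 0.12, where the median of all genes moved to 0.14. Relative to that median 48 of 91 members then lay below it, against 62 in the deposited scaling. Every later direction given over total reads in IR against control carries the same shift of all genes. Without IR 2 the members' median in IR against control was 0.00219, with 46 higher and 45 lower. Without IR+LYC 2 the median in IR+LYC against IR turned to -0.15, with 21 higher and 70 lower, and without IR+LYC 1 it was 0.24, with 86 higher and 5 lower. Leaving out IR 2 also took the median in IR+LYC against IR to -0.01, with 42 higher and 49 lower. IR and IR+LYC share the same controls in their comparisons, and IR is part of both others.

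Groups that did not overlap were no more frequent among the members than among all genes tested, in any comparison or direction. In IR against control 4 members (4.40%) had all IR libraries above every control, where 14.1% of all genes tested did. All IR libraries lay below every control in 12 (13.2%), close to the 14% of all genes. The 4 were the assembly factors Ndufaf2, Ndufaf5 and Ndufaf6 and the accessory subunit Ndufb6, and the 12 were Ndufs1, Ndufb9, Ndufaf8, Sdha, Sdhb, Sdhd, Uqcrc1, Uqcrc2, Cox6a2, Cox6b2, Atp5a1 and Atp5d. In IR+LYC against IR Ndufa12, Ndufaf6 and Cox6a2 were the 3 above (3.30%), against 4.25%, and 0 below, against 3.2%. Cox6a2 had 3, 6 and 5 reads in IR and 9, 5 and 6 in IR+LYC, so its reads overlapped. In IR+LYC against control 6 (6.59%) were above, against 8.87%, and Cox6a2 alone (1.10%) was below, against 8.64%. Cox6a2 passed the filter on low values only through its controls, so its place below control in both counts was fixed by the filter. The 6 were Ndufaf2, Ndufaf5, Ndufaf6, Ndufb6, Cox8b and Atp5g2. These counts were made in the deposited scaling and not over total reads. The same holds for every later statement that groups did or did not overlap, unless reads are given. Some of the 12 below control in IR overlapped per recovered read. Atp5a1, for one, had 33227 of 18941912 reads in IR 3 and 34967 of 20107262 in control 1.

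**Figure D4:**
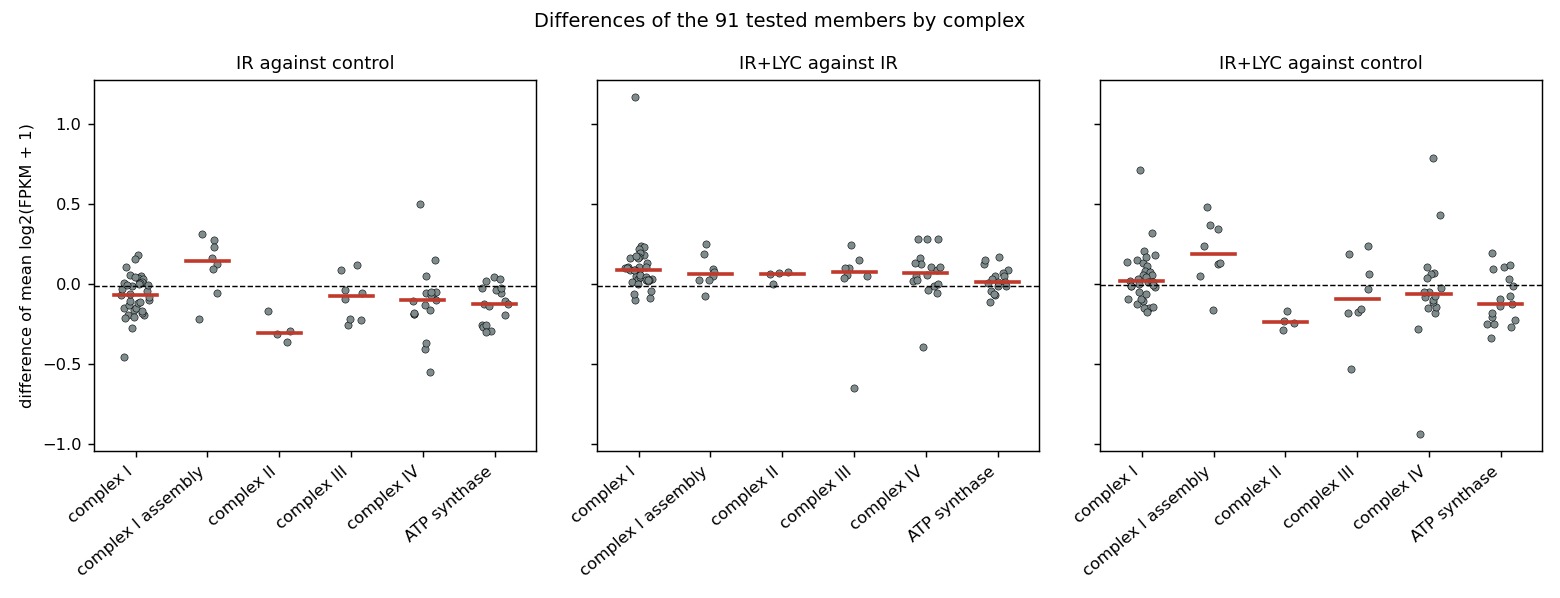
Difference of group means on the log2(FPKM + 1) scale for each tested member (grey points), by complex and comparison, with the median of each complex (red line) and of all genes tested (dashed line). Most points lie within 0.5 of 0, complex II lies lowest in IR against control (median -0.30) and Ndufa12 lies highest in IR+LYC against IR (1.17).

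Complex I has a matrix arm, whose core subunits carry electrons from NADH to ubiquinone, and many accessory subunits around it. Its summed level was 2404, 2356 and 2262 FPKM for control, 2183, 2031 and 2429 for IR and 1896, 3162 and 2342 for IR+LYC. In IR 12 of its 36 genes were higher and 24 lower than in control (median difference -0.06). This turned to 32 higher and 4 lower with FPKM over total reads (0.13, where the median of all genes was 0.14). Between IR+LYC and IR 32 were higher and 4 lower (0.09), which turned to 7 and 29 without IR+LYC 2 (-0.12). Ndufa1, a small accessory subunit of the membrane arm, was the most abundant per length, at 202, 172 and 161 FPKM for control, 157, 109 and 184 for IR and 101, 280.2 and 138 for IR+LYC. IR 2 and IR+LYC 1 were the lowest libraries there and the groups overlapped.

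Ndufs1, the iron-sulfur subunit that receives electrons from the NADH-oxidizing site, was at 18.6, 18.2 and 17.0 FPKM for control, 17.0, 14.4 and 15.5 for IR and 13.5, 22.2 and 13.9 for IR+LYC. All 3 IR libraries lay below every control, control 3 and IR 1 being level to the digits shown (log2 difference -0.19, standard error 0.18, limma adjusted p = 0.708). With FPKM over total reads the difference was 0.000131, beside a median of 0.14 for all genes. Ndufs7, whose promoter window held the YY1 letters and which carries the last iron-sulfur cluster before ubiquinone, was at 65.7, 71.9 and 71.3 FPKM for control, 58.9, 61.8 and 67.7 for IR and 59.2, 82.9 and 83.0 for IR+LYC. IR+LYC 1 was level with IR while the other two IR+LYC libraries were the highest of all (log2 difference 0.24, standard error 0.16, limma adjusted p = 0.994). The accessory subunit Ndufb11 was at 131, 129 and 114 FPKM for control, 113, 102 and 119 for IR and 106, 162 and 132 for IR+LYC, and IR+LYC overlapped IR (log2 difference 0.24, standard error 0.18, limma adjusted p = 0.994). Ndufa2, another accessory subunit, was at 142 ± 10.6 FPKM in control libraries, 124 ± 15.2 in those of IR and 147 ± 30.7 in those of IR+LYC (SD, n = 3) (log2 difference -0.19, standard error 0.19, limma adjusted p = 0.711 in IR against control). The lowest of complex I was Ndufb2, an accessory subunit at 1.505 to 2.96 FPKM. Ndufb6, an accessory subunit of the membrane arm, was at 80.6, 77.7 and 79.9 FPKM for control, 85.4, 90.2 and 90.1 for IR and 82.1, 130.3 and 92.2 for IR+LYC. Both irradiated groups lay above every control there (log2 difference 0.16, standard error 0.17, limma adjusted p = 0.734 in IR, log2 difference 0.32, standard error 0.17, limma adjusted p = 0.39 in IR+LYC), and 31.6% of its 50-base transcript words also occur in Smim27, at 0.966 to 1.53 FPKM.

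Ndufa12, an accessory subunit of complex I (ENSMUSG00000020022, chromosome 10, 94198720 to 94221443), lay at 2 separate levels that did not follow the other members. It was at 18.0, 40.6 and 16.9 FPKM for control, 14.4, 19.1 and 16.7 for IR and 37.2, 36.1 and 43.3 for IR+LYC. Control 2 lay with the 3 IR+LYC libraries at 36.1 or more, and the other 5 libraries lay at 19.1 or less. The groups IR and IR+LYC did not overlap (log2 difference 1.17, standard error 0.30, limma adjusted p = 0.994, unadjusted p = 0.00451). Among the alternatives its adjusted p lay between 0.180 and 1. The gap between both levels was 1.89-fold, and 657 of the 7596 tested genes with a mean of at least 5 FPKM had a gap as large somewhere among their 9 libraries. Its 5 neighbours examined on chromosome 10 did not share it. The nearest, Nr2c1, was at 5.48, 4.43 and 5.82 FPKM for control, 4.63, 3.11 and 4.25 for IR and 3.75, 6.27 and 3.38 for IR+LYC.

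After these values were seen, the reference transcripts were searched for copies of each member. Ndufa12 shares sequence with a processed pseudogene, Gm15920 (chromosome 5, 130188395 to 130188796), a copy of its messenger RNA. Of the 353 words of 50 bases in Gm15920, 78.8% also occur in Ndufa12 transcripts of GENCODE M21, where they make up 17.7% of the 1567 words of Ndufa12. Gm15920 was at 105, 47.9 and 91.5 FPKM for control, 93.1, 77.6 and 143 for IR and 36.3, 116 and 39.7 for IR+LYC. It was lowest in control 2, IR+LYC 1 and IR+LYC 3, which are 3 of the 4 libraries with high Ndufa12, and high in IR+LYC 2. Of the reads of both, 40.1, 76.8 and 41.9 % were assigned to Ndufa12 for control, 37.6, 49.0 and 31.3 for IR and 80.0, 55.0 and 80.9 for IR+LYC. Counted together over the length of Ndufa12, both came to 44.8, 52.9 and 40.3 FPKM for control, 38.2, 39.0 and 53.3 for IR and 46.5, 65.8 and 53.4 for IR+LYC, and on that sum IR and IR+LYC overlapped. The level of Ndufa12 alone is uncertain to the extent that shared reads were divided between both, which was not tested.

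The 8 complex I assembly factors, which build the complex but do not stay in it, lay mostly higher after irradiation. In IR 6 of 8 were higher than in control (median difference 0.14) and in IR+LYC 7 of 8 (0.19), and 0 passed. The medians kept their sign with FPKM over total reads (0.32 and 0.40, beside 0.14 and 0.17 for all genes). Without IR+LYC 2, 6 of 8 were higher in IR+LYC than in control (0.28) and 4 of 8 passed, against 26.8% of all genes. Their sum stayed within narrow limits, at 69.6, 72.6 and 63.9 FPKM for control, 68.1, 72.2 and 69.4 for IR and 71.3, 78.4 and 73.9 for IR+LYC. Ndufaf6, an early assembly factor of the membrane arm (ENSMUSG00000050323, chromosome 4, 11051045 to 11076205), was at 5.75, 6.05 and 5.51 FPKM for control, 6.63, 7.38 and 6.85 for IR and 8.22, 7.81 and 9.43 for IR+LYC. Every IR library lay above every control and every IR+LYC library above every IR library. The difference of IR+LYC from control did not pass (log2 difference 0.48, standard error 0.10, limma adjusted p = 0.202), nor did that of IR from control (log2 difference 0.23, standard error 0.10, limma adjusted p = 0.581) or of IR+LYC from IR (log2 difference 0.25, standard error 0.10, limma adjusted p = 0.994). Without IR+LYC 2 it passed in IR+LYC against control (limma log2 difference 0.54, adjusted p = 0.0212).

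Ndufaf5, a hydroxylase that modifies Ndufs7 (known from human cells), was at 4.86, 5.32 and 4.49 FPKM for control, 6.28, 6.73 and 5.40 for IR and 6.31, 6.42 and 7.08 for IR+LYC. Both irradiated groups lay above every control (log2 difference 0.27, standard error 0.11, limma adjusted p = 0.546 in IR, log2 difference 0.37, standard error 0.11, limma adjusted p = 0.307 in IR+LYC). Ndufaf2, a paralog of Ndufa12 that takes its place during assembly, was at 2.84, 2.62 and 2.12 FPKM for control, 3.60, 3.43 and 3.11 for IR and 3.60, 3.28 and 3.52 for IR+LYC, again with both irradiated groups above every control (log2 difference 0.32, standard error 0.10, limma adjusted p = 0.481 in IR, log2 difference 0.35, standard error 0.10, limma adjusted p = 0.316 in IR+LYC). Of the 50-base words of Ndufaf2 transcripts 64.1% also lie in B230220B15Rik, a long noncoding gene on the same chromosome that had 0 reads in every library, so the count of Ndufaf2 is uncertain. Ndufaf4 was at 8.41, 6.56 and 5.77 FPKM for control, 6.24, 7.21 and 6.22 for IR and 7.50, 10.2 and 5.66 for IR+LYC (log2 difference 0.19, standard error 0.20, limma adjusted p = 0.994 in IR+LYC against IR), with no order between groups. Ndufaf8, the most abundant of the 8, went the other way, at 27.5, 27.5 and 25.5 FPKM for control, 22.6, 22.3 and 24.0 for IR and 19.4, 29.4 and 23.9 for IR+LYC. All 3 IR libraries lay below every control (log2 difference -0.21, standard error 0.15, limma adjusted p = 0.663).

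Complex II, succinate dehydrogenase, is shared with the citric acid cycle and is encoded by 4 nuclear genes alone. In IR 4 of 4 were lower than in control, with a median difference of -0.30, 3 of them without overlap, where 14% of all genes tested lay so, and 0 passed. With FPKM over total reads 3 of 4 were lower (-0.10), and without IR 2 the median was -0.18. Per recovered read Sdha stayed without overlap, but Sdhb and Sdhd overlapped. In IR 3 Sdhb and Sdhd had 4905 and 5327 of 18941912 reads, and in control 3 they had 4406 and 4911 of 18008213. Sdhb, the iron-sulfur subunit (ENSMUSG00000009863, chromosome 4, 140961203 to 140979193), was at 135, 127 and 122 FPKM for control, 102, 79.6 and 119.5 for IR and 66.5, 176 and 97.5 for IR+LYC. Its IR libraries lay below every control (log2 difference -0.36, standard error 0.33, limma adjusted p = 0.697). Sdha, the flavoprotein that oxidizes succinate, was at 177, 152 and 164 FPKM for control, 141, 111 and 147 for IR and 101, 212 and 124 for IR+LYC, and IR lay below control as well (log2 difference -0.31, standard error 0.27, limma adjusted p = 0.689).

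Sdhd, a membrane anchor and the most abundant of the 4, was at 279, 258 and 247 FPKM for control, 229, 179 and 236 for IR and 153, 357 and 201 for IR+LYC (log2 difference -0.29, standard error 0.29, limma adjusted p = 0.716). IR 2 was the lowest of the IR libraries and IR+LYC 2 the highest of all. Sdhc, the other anchor and the least abundant, was at 86.2, 77.5 and 78.7 FPKM for control, 72.5, 58.3 and 87.0 for IR and 55.1, 104 and 64.7 for IR+LYC, and IR 3 lay above the controls (log2 difference -0.17, standard error 0.25, limma adjusted p = 0.793). In IR+LYC against IR the 4 differences were 0.07, 0.08, 0.00 and 0.06 for Sdha, Sdhb, Sdhc and Sdhd, none of them past the test. Without IR+LYC 2 the 4 were all lower than in IR, with a median of -0.27. In the deposited FPKM Sdhb and Sdhd were lowest in the 3 libraries with the lowest enterocyte markers, and spanned 66.5 to 176 and 153 to 357 FPKM.

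Complex III takes electrons from ubiquinol. In IR 2 of 8 genes were higher and 6 lower than in control (median -0.07). This turned to 5 and 3 with FPKM over total reads (0.13, where the median of all genes was 0.14). The genes of the core proteins Uqcrc1 and Uqcrc2 were those of complex III whose IR libraries lay below every control. Uqcrc1 was at 119, 113 and 112 FPKM for control, 98.7, 81.3 and 111 for IR and 72.8, 154 and 98.1 for IR+LYC (log2 difference -0.25, standard error 0.26, limma adjusted p = 0.718), and Uqcrc2 at 147, 129.9 and 135 FPKM for control, 129.6, 101 and 123 for IR and 96.8, 168 and 111 for IR+LYC (log2 difference -0.22, standard error 0.22, limma adjusted p = 0.71). In both genes IR+LYC spanned the other groups, from the lowest library of the 9 to the highest. The Rieske iron-sulfur protein gene Uqcrfs1 averaged 192 ± 20.7 FPKM for control, 166 ± 27.7 for IR and 179 ± 78.4 for IR+LYC (SD, n = 3), with overlap (log2 difference -0.22, standard error 0.29, limma adjusted p = 0.777 in IR against control). Uqcr11 and Uqcr10, small accessory subunits, had higher means in IR+LYC than in IR, at 226 ± 60.1 against 187 ± 19.4 and 202 ± 37.6 against 179.8 ± 11.6 FPKM. Neither passed (limma adjusted p = 0.994 for both) and IR+LYC 1 lay within or below the IR libraries.

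Uqcrb, the subunit near the ubiquinone site of complex III and the lowest of the 8 per length (ENSMUSG00000021520, chromosome 13, 66900617 to 66905378), was at 116, 95.2 and 106 FPKM for control, 124, 86.1 and 142 for IR and 55.8, 116 and 59.6 for IR+LYC. IR+LYC 1 and IR+LYC 3 were at 55.8 and 59.6 FPKM, below the other 7 libraries, while IR+LYC 2 was level with control 1. The difference from IR did not pass (log2 difference -0.65, standard error 0.30, limma adjusted p = 0.994, unadjusted p = 0.0628), and under the alternatives tried its adjusted p lay between 0.170 and 1. Without IR+LYC 2 Uqcrb passed in IR+LYC against control (log2 difference -0.86, limma adjusted p = 0.0316). Of its 50-base words 25.5% occur in 5 other genes, 4 of them processed pseudogenes, whose summed level was 10.2 to 27.4 FPKM, and its start overlaps Gm10767 on the other strand, which was at 0.235 to 1.15 FPKM.

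**Figure D5:**
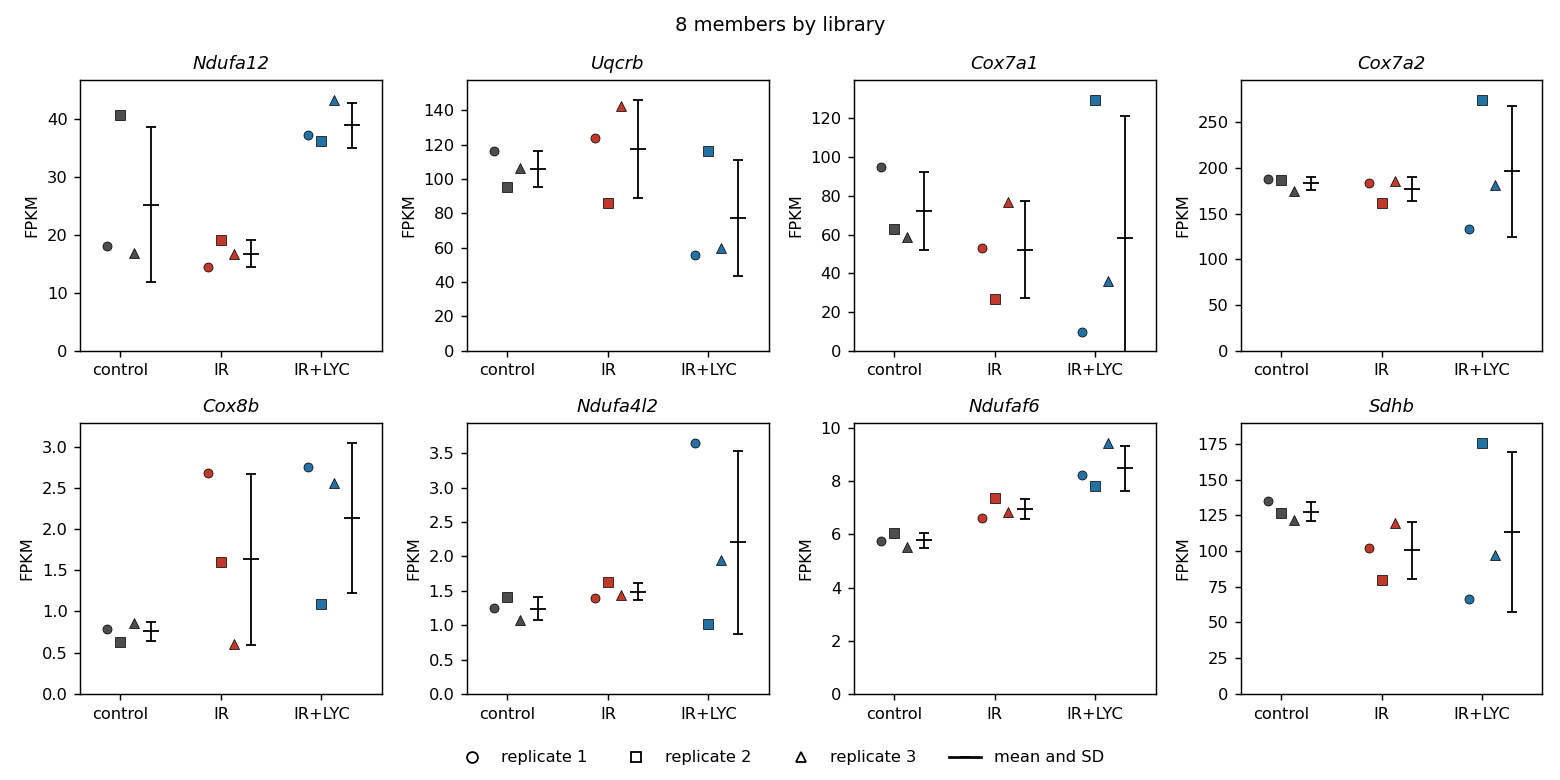
FPKM of 8 members in each library, with symbols for the replicate and a bar for the mean ± SD (n = 3), whose lower end is cut at 0 for Cox7a1. Ndufa12 shows 2 levels, Uqcrb is low in IR+LYC 1 and IR+LYC 3 (55.8 and 59.6 FPKM), Cox7a1 spans 9.85 to 129.6 FPKM where Cox7a2 spans 134 to 275, and Ndufaf6 lies highest in IR+LYC.

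Complex IV, cytochrome c oxidase, has ubiquitous subunits and isoforms used in other tissues. In IR 3 of 18 tested genes were higher and 15 lower than in control (median -0.10). This turned to 15 and 3 with FPKM over total reads (0.10, where the median of all genes was 0.14). The ubiquitous isoform made up most of each pair per length. Cox4i1 took 99.5 to 99.9% of the summed FPKM with Cox4i2, Cox6a1 99.88 to 99.97% with Cox6a2, Cox6b1 98.8 to 99.3% with Cox6b2, and Cox8a 99.4 to 99.9% with Cox8b. Cox6a1, the most abundant member of all per length, whose promoter held the most NRF1 letters of those shown, was at 805, 738 and 694 FPKM for control, 664, 540.5 and 792 for IR and 475, 1107 and 676 for IR+LYC, and its groups overlapped (log2 difference -0.18, standard error 0.31, limma adjusted p = 0.826 in IR, log2 difference 0.11, standard error 0.31, limma adjusted p = 0.994 in IR+LYC against IR). Cox4i1, Cox8a and Cox6b1 had control means of 520.1 ± 24.2, 613 ± 23.4 and 349.7 ± 5.90 FPKM and IR means of 461 ± 71.0, 555 ± 107 and 310.5 ± 47.6 (SD, n = 3). Their limma adjusted p in IR against control was 0.787, 0.805 and 0.790. Cox7b averaged 183 ± 14.9 FPKM for control, 172 ± 30.4 for IR and 174 ± 72.9 for IR+LYC, while its testis partner Cox7b2 had no reads.

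Cox7a1, the heart and muscle isoform of the COX7A family (ENSMUSG00000074218, chromosome 7, 30184144 to 30186078) had the largest share of its family among these isoforms and the widest range of the 91 members. It was at 95.1, 62.9 and 58.6 FPKM for control, 53.2, 26.7 and 76.7 for IR and 9.85, 129.6 and 35.8 for IR+LYC, a 13.1-fold range against a median of 1.84-fold over the 91 members. IR+LYC 1 was lowest and IR+LYC 2 highest, and all groups overlapped (log2 difference -0.55, standard error 0.81, limma adjusted p = 0.794 in IR, log2 difference -0.94, standard error 0.81, limma adjusted p = 0.529 in IR+LYC against control). Its ubiquitous partner Cox7a2 was at 188, 187 and 175 FPKM for control, 183, 162 and 186 for IR and 134, 275 and 181 for IR+LYC. Neither promoter window held NRF1, ETS or YY1 letters.

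The share of Cox7a1 in the sum of both was 33.6, 25.1 and 25.1% for control, 22.5, 14.2 and 29.2 for IR and 6.86, 32.0 and 16.5 for IR+LYC. The 3 libraries with the smallest shares, IR+LYC 1, IR 2 and IR+LYC 3, are the 3 lowest in enterocyte markers. Smooth muscle markers were highest in IR+LYC 1, where Cox7a1 was lowest, and summed striated muscle markers were 6.39 to 18.5 FPKM, highest in the same library. The part of either tissue in the level of Cox7a1 was not tested. Cox7a2l, which helps complexes III and IV associate, was steadier, at 158, 155 and 165 FPKM for control, 163, 140.0 and 156 for IR and 157, 187 and 171 for IR+LYC (log2 difference 0.17, standard error 0.13, limma adjusted p = 0.994 in IR+LYC against IR), and 13.8% of its 50-base words occur in a processed pseudogene at 1.43 to 3.35 FPKM.

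The remaining isoforms were low. Cox8b, the heart and muscle isoform of subunit VIII, whose window held TATAAA and not the ETS letters of Cox8a (ENSMUSG00000025488, chromosome 7, 140898945 to 140900446), was at 0.789, 0.634 and 0.858 FPKM for control, 2.68, 1.60 and 0.606 for IR and 2.75, 1.09 and 2.56 for IR+LYC. All 3 IR+LYC libraries lay above every control (log2 difference 0.79, standard error 0.32, limma adjusted p = 0.345, unadjusted p = 0.0376), and IR 1 and IR 2 did while IR 3 lay below (log2 difference 0.50, standard error 0.32, limma adjusted p = 0.652). Cox8b had few reads, at 5, 4 and 5 for control, 19, 13 and 4 for IR and 28, 6 and 19 for IR+LYC. IR+LYC 2 thus lay above control on 6 reads against 5 at most. Cox8b passed in IR+LYC against control without IR+LYC 2 (log2 difference 1.06, limma adjusted p = 0.0407). Ndufa4l2, a paralog of the complex IV subunit Ndufa4 that is known to be induced by hypoxia, was at 1.246, 1.41 and 1.07 FPKM for control, 1.39, 1.62 and 1.44 for IR and 3.65, 1.02 and 1.95 for IR+LYC, highest in IR+LYC 1 (log2 difference 0.44, standard error 0.26, limma adjusted p = 0.409 in IR+LYC against control). Ndufa4 itself averaged 148 ± 18.5 FPKM for control, 144 ± 20.1 for IR and 159 ± 49.9 for IR+LYC (SD, n = 3), with no difference past the test (limma adjusted p = 0.938 in IR against control).

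Cox6a2, the heart and muscle isoform of subunit VIa, had the smallest p of the members in IR against control. It was at 0.585, 0.922 and 0.818 FPKM for control, 0.224, 0.392 and 0.401 for IR and 0.468, 0.483 and 0.428 for IR+LYC, all IR libraries below every control (log2 difference -0.40, standard error 0.11, limma adjusted p = 0.373, unadjusted p = 0.00558). It entered the test through its control values alone, since every irradiated library lay under the 0.5 FPKM of the filter, so that difference had to favour control. Cox6b2, a testis isoform, was at 4.16, 3.50 and 3.35 FPKM for control, 2.07, 3.17 and 2.71 for IR and 2.08, 5.51 and 3.29 for IR+LYC, again with IR below control (log2 difference -0.36, standard error 0.25, limma adjusted p = 0.663). Cox4i2, the lung isoform of subunit IV, was at 1.37, 1.16 and 1.18 FPKM for control, 0.904, 1.52 and 1.59 for IR and 1.93, 0.833 and 1.42 for IR+LYC and its groups overlapped (log2 difference 0.05, standard error 0.19, limma adjusted p = 0.917). These values of about 1 FPKM leave small counts, as Cox6a2 had 3 to 11 reads per library.

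The ATP synthase genes lay lower in IR in 14 of 17 cases, with a median difference of -0.12. This turned to 12 higher and 5 lower with FPKM over total reads (0.08, where the median of all genes was 0.14). Without IR 2 it turned to 8 and 9 (-0.01). Atp5b, the catalytic beta subunit and the most abundant of them, was at 686, 606 and 649 FPKM for control, 549.8, 463 and 624 for IR and 408, 780.1 and 489 for IR+LYC (log2 difference -0.25, standard error 0.26, limma adjusted p = 0.716). Atp5a1, the alpha subunit, was at 634, 584 and 614 FPKM for control, 526, 427 and 578 for IR and 394, 709 and 483 for IR+LYC, with every IR library below every control (log2 difference -0.27, standard error 0.24, limma adjusted p = 0.696). Atp5d, of the central stalk, was at 195, 192 and 204 FPKM for control, 169, 139.6 and 190.1 for IR and 124, 219 and 177 for IR+LYC, likewise without overlap (log2 difference -0.25, standard error 0.22, limma adjusted p = 0.693). Atp5c1, the gamma subunit that turns within the head, was at 274, 233 and 251 FPKM for control, 220.3, 167 and 236 for IR and 156, 293 and 173 for IR+LYC and overlapped at 1 library, since IR 3 lay within the controls (log2 difference -0.29, standard error 0.26, limma adjusted p = 0.693). Atp5c1 passed without IR+LYC 2 in IR+LYC against control (log2 difference -0.61, limma adjusted p = 0.0426).

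The c-ring, the rotor in the membrane, is made of many copies of the same mature protein, encoded by 3 genes. Atp5g3 gave most of the summed FPKM, with 75.9, 72.2 and 73.7% for control, 70.6, 65.9 and 72.2 for IR and 62.7, 75.9 and 64.4 for IR+LYC. Its own level was 320.3, 269 and 283 FPKM for control, 242, 190.1 and 284 for IR and 167, 400.2 and 218 for IR+LYC (log2 difference -0.30, standard error 0.31, limma adjusted p = 0.724 in IR against control). Atp5g2 was much steadier, at 69.4, 69.2 and 70.0 FPKM for control, 70.0, 67.7 and 74.6 for IR and 71.3, 82.7 and 86.4 for IR+LYC, and all IR+LYC libraries lay above every control (log2 difference 0.20, standard error 0.12, limma adjusted p = 0.415). Its IR+LYC and IR libraries overlapped (log2 difference 0.17, standard error 0.12, limma adjusted p = 0.994). Of its 50-base words 38.3% occur in 3 other genes, summed at 8.25 to 15.5 FPKM. Atp5g1 was at 32.3, 34.1 and 30.9 FPKM for control, 30.9, 30.6 and 34.5 for IR and 28.3, 44.2 and 34.3 for IR+LYC (log2 difference 0.13, standard error 0.16, limma adjusted p = 0.994). Of its 50-base words 6.86% occur in the processed pseudogene Gm10039, which was at 88.7 to 151 FPKM, above Atp5g1 in every library. How shared reads were divided was not tested, so the level of Atp5g1 and the shares of the 3 genes are uncertain.

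Atp5k, a small subunit at the interface of synthase dimers, had the widest range of the synthase, at 93.5, 66.9 and 64.4 FPKM for control, 63.5, 53.6 and 91.6 for IR and 41.9, 124 and 52.8 for IR+LYC, 2.97-fold from IR+LYC 1 to IR+LYC 2 (log2 difference -0.06, standard error 0.40, limma adjusted p = 0.999 in IR+LYC against IR). Atp5l, another dimer subunit, was at 17.8, 18.8 and 17.7 FPKM for control, 16.9, 17.1 and 19.1 for IR and 14.5, 28.5 and 18.5 for IR+LYC (log2 difference 0.15, standard error 0.21, limma adjusted p = 0.994), and its highest library was again IR+LYC 2. Of the 50-base words of Atp5l 4.01% occur in the processed pseudogene Gm10221, at 80.8 to 172 FPKM, so the level of Atp5l is uncertain too. Of the first Atp5o entry, a peripheral stalk subunit at 92.0 FPKM on average, 41.6% of the 50-base words are shared with other entries, the unread second Atp5o among them.

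Calls among the members appeared in 1 alternative alone, the comparison of IR+LYC with control without IR+LYC 2. There 11 of 91 members passed, where 26.8% of all genes tested did, so the members' share (12.1%) was under that background. The 6 higher were Ndufaf2, Ndufaf5, Ndufaf6, Ndufaf7, Ndufa4l2 and Cox8b, and the 5 lower were Uqcrb, Atp5c1, Sdha, Atp5f1 and Ndufs1. Of all genes 11.2% passed as higher and 15.5% as lower. In IR against control without IR+LYC 2, 0 members passed, where 0.637% of all genes did, 0.149% as higher and 0.487% as lower. The log2 differences in this fit of those not yet given were 0.38 for Ndufaf2, 0.39 for Ndufaf5, 0.41 for Ndufaf7, 0.73 for Ndufa4l2, -0.55 for Sdha, -0.54 for Atp5f1 and -0.37 for Ndufs1 (limma adjusted p = 0.0433, 0.0446, 0.0279, 0.0322, 0.0492, 0.0470 and 0.0372). Ndufaf7 is a methyltransferase that modifies a core subunit (known from human cells), and Atp5f1 is the peripheral stalk subunit b. IR+LYC then holds 2 libraries, both low in enterocyte markers, of which 11 of 15 passed as lower in the same fit, and 9 of 10 smooth muscle markers passed as higher. Their part in the members' calls was not tested.

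The mitochondrially encoded subunits, which join these nuclear products in complexes I, III and IV and in the ATP synthase, had a summed level of 34910.2, 25840.1 and 27678 FPKM for control, 27021, 19538 and 24405 for IR and 22357, 42071 and 30582 for IR+LYC. In IR 12 of 13 were lower than in control and 1 higher, with a median difference of -0.37, and in IR+LYC against IR 13 of 13 were higher with 0.45, none past the test. With FPKM over total reads the first became 2 higher and 11 lower (-0.16), and without IR+LYC 2 the second became 12 and 1 (0.19). IR 2 was lowest and IR+LYC 2 highest. IR+LYC 1, the lowest library for the nuclear genes, was the second lowest here.

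Partners outside the symbol rule followed the order of the libraries. Of 13 tested carriers and partners 4 were higher and 9 lower in IR and 0 passed (median -0.16), and with FPKM over total reads 7 were higher and 6 lower. Cycs, the gene of cytochrome c, was at 88.4, 83.0 and 73.6 FPKM for control, 77.2, 61.8 and 80.7 for IR and 37.3, 138 and 49.2 for IR+LYC (log2 difference -0.16, standard error 0.42, limma adjusted p = 0.887). Cyc1, the cytochrome c1 subunit of complex III, was at 193, 187 and 186 FPKM for control, 159, 140.3 and 175 for IR and 118, 229 and 162 for IR+LYC, and Slc25a5, a carrier that exchanges ADP for ATP, at 1509.6, 1206 and 1451 FPKM for control, 1019.7, 545 and 1182 for IR and 416, 1492 and 578 for IR+LYC. In all 3 genes IR+LYC 1 was the lowest library. In the citric acid cycle 12 of 13 genes were lower in IR, 7 without overlap against 14% of all genes, and 0 passed (median -0.23), and with FPKM over total reads 6 were higher and 7 lower. Citrate synthase, Cs, was at 196, 168 and 204 FPKM for control, 150.2, 84.4 and 165 for IR and 61.4, 189 and 84.3 for IR+LYC (log2 difference -0.56, standard error 0.41, limma adjusted p = 0.667).

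Of 18 regulators of mitochondrial biogenesis 9 were higher and 9 lower in IR, with 0 past the test, and 14 higher and 4 lower with FPKM over total reads. Ppargc1a, the coactivator known to raise these genes, was at 11.2, 7.24 and 7.42 FPKM for control, 4.55, 1.72 and 5.83 for IR and 1.12, 10.5 and 1.75 for IR+LYC (log2 difference -1.01, standard error 0.62, limma adjusted p = 0.644), and Esrra, the nuclear receptor that it works through, at 158, 136 and 166 FPKM for control, 110.5, 70.7 and 132 for IR and 50.7, 177 and 88.2 for IR+LYC. Both had their lowest value in IR+LYC 1. The factors whose letters were searched had narrower ranges, with Nrf1 at 2.39 to 3.30 FPKM, Gabpa at 8.54 to 12.6 FPKM and Yy1 at 17.3 to 21.1 FPKM. Tfam, which packs and transcribes mitochondrial DNA, was at 12.9, 12.9 and 11.8 FPKM for control, 12.98, 12.3 and 12.0 for IR and 16.0, 14.98 and 14.5 for IR+LYC, and all IR+LYC libraries lay above the others (log2 difference 0.27, standard error 0.09, limma adjusted p = 0.994 in IR+LYC against IR).

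Genes of the mitochondrial ribosome, which translates the mitochondrially encoded subunits, mostly lay higher after irradiation in the deposited scaling and with FPKM over total reads. Over total reads 77 of 77 were higher in IR than in control (median 0.34, beside 0.14 for all genes). In IR+LYC against control 76 of 77 then were (0.47, beside 0.17). The values that follow are in the deposited scaling unless stated. In IR 69 of 77 were higher than in control with a median difference of 0.15, 34 without overlap against 14.1% of all genes, and in IR+LYC against control 73 of 77 with 0.25. None passed with all libraries (smallest limma adjusted p = 0.403 and 0.269). Their summed level was 1266, 1314 and 1255 FPKM for control, 1347, 1420.0 and 1419 for IR and 1402, 1506 and 1535 for IR+LYC. IR+LYC 1, the lowest library for the nuclear subunits, lay above every control here. Without IR+LYC 2, 21 of 77 passed as higher in IR+LYC against control, against 11.2% of all genes. Of 39 tested assembly factors outside the rule 24 were higher and 15 lower in IR (median 0.03), which became 36 and 3 with FPKM over total reads (0.20). In IR+LYC against control 13 lay above every control without overlap, against 8.87% of all genes, with 0 past the test. Of 17 glycolysis genes 9 were higher and 8 lower in IR (median 0.05), again with 0 past the test, and with FPKM over total reads 14 were higher and 3 lower (0.25).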

How the data were processed

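RNA-seq of 9 mouse intestine libraries was used, 3 each for control, IR and IR+LYC. The authors deposited FPKM per gene. The submitters' processing notes name fastp, a read trimmer, and the aligner HISAT2 2.0.5. The genome build, annotation, counting tool and strand setting are not given in the sources used here. The deposited FPKM are whole multiples of 1 read within 0.01, so reads could be recovered, and carry a further factor per library, since their median ratios across libraries are already 1.00. One read on 1 kb was worth 0.0354 to 0.0656 FPKM. The 15391 genes that reached 0.5 FPKM in 3 or more libraries were tested on log2(FPKM + 1), with a pseudocount of 1 that understates changes of low genes, by limma 3.58.1 in R 4.3.3 with a mean-variance trend, the 3 groups in 1 model and Benjamini-Hochberg adjustment. The fit was run on simulated data with large planted changes and separate noise for each gene. It was not tried on small differences shared by many genes. Same-numbered libraries of different groups correlated from -0.65 to 0.38 in their deviations, and differently numbered ones from -0.61 to 0.64. These correlations cannot tell whether numbers pair samples, and the main fit used no pairing. Named members were those past the threshold, the 3 of smallest p per complex in each of IR against control and IR+LYC against IR, the highest and lowest of each complex, fixed isoform families and the 5 that varied most; others named were chosen after their values were seen. The members and lists were chosen with earlier results of these data known. Promoters came from RefSeq (GRCm38.p6), and transcripts for the search of shared 50-base words from GENCODE M21, in which 88 of the 94 members have the position of the deposited table.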

Additional observations from a re-analysis of the deposited data

How the results depend on the processing

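The count of all genes past the threshold was 3 in IR against control, 0 in IR+LYC against IR and 3 in IR+LYC against control. In the first and the last of these it was 0 and 0 with limma-voom on the recovered reads, 1 and 1 with a mean of at least 5 FPKM, 7 and 6 with no filter, 100 and 1 with only the groups compared in the fit, and 1 and 0 with a pseudocount of 0.1. The replicate block gave 0 and 0 calls, and the labels tie the libraries of a block only by a shared number. FPKM over total reads, added after seeing the data, gave 1 call in IR+LYC against control. Leaving out 1 library at a time gave 0 to 98 and 0 to 4120 calls, and 0 to 11 among the members in IR+LYC against control, the upper values all without IR+LYC 2. In every other alternative run 0 members passed. Of 58 differences of members, 18 reversed in sign at least once. The median of all genes in IR against control was itself 0.19 with limma-voom and 0.14 with FPKM over total reads. With limma-voom and with FPKM over total reads, differences in IR against control reversed to 0.0251 and 0.0245 for Cox6a1, 0.0411 and 0.0412 for Cox8a, 0.0188 and 0.0189 for Cox4i1, 0.0209 and 0.0207 for Cox6b1, 0.155 and 0.153 for Ndufa4, 0.0114 and 0.0109 for Ndufa2, 0.0323 and 0.0316 for Sdhc, and 0.000122 and 0.000131 for Ndufs1. Reversals on leaving out a library gave these ranges in IR+LYC against IR: Atp5g1 -0.0352 to 0.28, Atp5k -0.52 to 0.26, Atp5l -0.10 to 0.37, Cox6a1 -0.21 to 0.40, Ndufaf4 -0.00399 to 0.37, Sdha -0.24 to 0.29, Sdhb -0.30 to 0.40, Sdhc -0.26 to 0.19 and Sdhd -0.28 to 0.33. In IR against control they were -0.0271 to 0.20 for Cox4i2 and -0.14 to 0.0671 for Ndufa4. Medians of the whole set changed sign in 10 cases, each a comparison under an alternative. Each of these shifts was under 0.247, the within-group SD of the members' library medians. In IR+LYC against control the median ran from -0.22 to 0.23 over all alternatives. The causes were not tested beyond the libraries named. The planned quasi-likelihood count test was not run, since the deposited unit is FPKM. The lowest tested member, Cox6a2, rested on 3 to 11 reads per library, and 3 libraries a group limit the precision of every difference.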
